A study of Mus musculus with 10 samples.

Results

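Canonical Wnt signaling is carried by a small set of gene families, and their transcripts were compared here between Drd2-expressing cells of the dorsal and the ventral hippocampus. The set held every protein-coding gene whose symbol marks a Wnt ligand, a Frizzled receptor, an Lrp5 or Lrp6 co-receptor, an R-spondin or its Lgr receptor, a secreted inhibitor of the Dkk, Sfrp or Wif1 type, a cytoplasmic component (Apc, Axin, Ctnnb1, Dvl and Gsk3 genes) or a TCF/LEF transcription factor. The rule used gene names and no measured value, and it found 62 of the 21998 protein-coding genes among the 54838 genes in the data.

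Secreted Wnt proteins bind a Frizzled receptor together with Lrp5 or Lrp6. Without this signal, a complex built on Axin and Apc lets Gsk3 mark beta-catenin, the product of Ctnnb1, for destruction; with it, Dvl proteins hold the complex back and beta-catenin enters the nucleus, where it binds TCF/LEF factors such as Tcf7l2. R-spondins act through Lgr4, Lgr5 and Lgr6 and keep Frizzled receptors at the cell surface, whereas Sfrp proteins and Wif1 bind Wnts and Dkk1 blocks the Lrp co-receptors. The pathway is needed to form the hippocampus and takes part in adult neurogenesis in the dentate gyrus.

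Translating ribosome affinity purification (TRAP) precipitates ribosomes that carry EGFP-tagged L10a, together with the RNA bound to them. All libraries came from male C57BL/6 mice about 10 weeks old of the genotype Drd2-Cre;Eef1a1LSL.eGFPL10a/+, in which Drd2-Cre switches the tag on. The groups were 5 Dorsal and 5 Ventral libraries, each from the pooled hippocampal pieces of 5 mice, so a replicate is a pool. The hippocampi of 25 mice were divided, so dorsal and ventral pools share animals, but which pools share them is not given in the sources used here, and the libraries were tested as independent. Neither group carried a treatment, and the ventral subiculum had been cut away. Mossy cells of the hilus are, by the study's histology, the main cells that this driver marks in this tissue. The study calls the other marked cells a minor subset in its results, but its limitations name a substantial subset of GABAergic interneurons.

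Total counts per library ran from 11138676 to 16779821 in dorsal and from 11618625 to 20594364 in ventral libraries. Levels are given as CPM, counts scaled to TMM-adjusted library sizes. A floor of 3 counts corresponds to 0.146 to 0.269 CPM and covers counting error only. Of the mossy cell markers, Calb2 averaged 65.2 CPM in dorsal libraries and 616 CPM in ventral ones, Drd2 28.1 and 20.7 CPM, and Calcrl 7.52 and 8.25 CPM. Of 13 tested mossy cell markers 3, or 23.1%, were called dorsal-enriched (Ajap1, Gria2 and Gria3), against 15.7% of all tested genes. Another 4, or 30.8%, were called ventral-enriched (Calb2, Satb1, Ap2s1 and Necab1), against 9.85% of all tested genes. The 15 on the list summed to 2228 to 2569 CPM in dorsal libraries and 2642 to 3071 CPM in ventral ones, with no overlap. This gap rested on Calb2, at 49.7 to 73.9 CPM in dorsal and 529 to 726 CPM in ventral libraries. Gria2, which had the highest mean level on the list, went the other way, at 1143 and 651 CPM. The 10 interneuron markers were all expressed, with summed levels of 3441 to 4622 CPM in dorsal libraries and 4110 to 5367 CPM in ventral ones. Most of this was Gad2, at means of 2853 CPM in dorsal libraries and 3174 CPM in ventral ones. Of the interneuron markers, 3 of 10, or 30% (Sst, Pvalb and Lhx6), were called ventral-enriched, against 9.85% of all tested genes. The log2 fold change was below 0 for 9 of 10 of these markers. The 6 oligodendrocyte markers summed to 2345 to 2819 CPM in dorsal libraries and 839.5 to 1651 CPM in ventral ones. Of these, 4 of 6, or 66.7%, were called dorsal-enriched, against 15.7% of all tested genes. The 6 choroid plexus and ependyma markers summed to 132 to 1000 CPM in dorsal libraries and 189 to 433 CPM in ventral ones. Here too 4 of 6, or 66.7%, were called dorsal-enriched, against the same 15.7%. None of these or the other cell type markers was at 0 in every library. Read pairs that the counting assigned to no annotated feature made up 21.8 to 33.9% of dorsal and 11.6 to 19.3% of ventral libraries. This class can hold reads from introns as well as from between genes. The part of these differences in the results below was not tested, and in such bulk libraries a smaller number of cells of a type and less RNA per cell cannot be told apart.

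The level of most of the set was low, and a few genes stood far above the rest. CPM per kilobase of exonic length, which allows genes to be compared, averaged over all 10 libraries 96.0 for Gsk3b, 43.7 for Dkk3, 27.6 for Apc, 23.0 for Gsk3a and 22.8 for Fzd3. Ctnnb1 followed at 15.2, Dvl3 at 11.6, Rspo1 at 9.26, Rspo3 at 6.24, Lrp6 at 5.24 and Wnt5a at 4.75 CPM per kilobase. Tcf7l2 stood at 1.33 CPM per kilobase. By role, the summed level was 176 ± 9.67 (SD, n = 5) CPM per kilobase in dorsal and 196 ± 6.72 in ventral libraries for the 10 cytoplasmic components, but 11.5 ± 1.48 and 13.2 ± 2.03 for the 19 ligands and 2.45 ± 0.530 and 1.87 ± 0.785 for the 4 TCF/LEF factors.

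**Figure D1:**
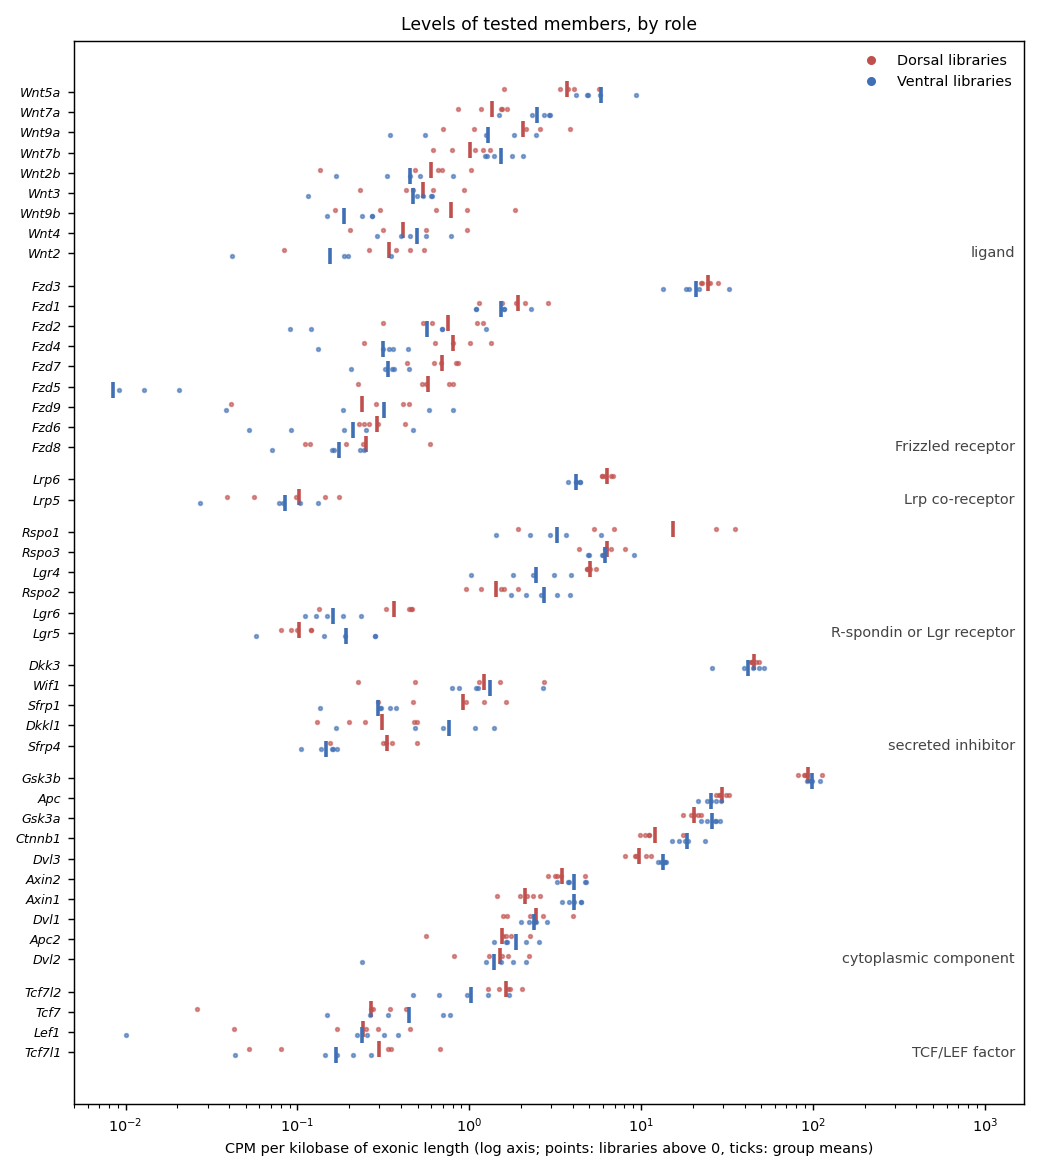
Level of the 45 tested genes of the set as CPM per kilobase of exonic length on a log axis, grouped by role, with 1 point for each dorsal (red) or ventral (blue) library above 0 and a tick at each group mean over 5 libraries. Gsk3b, Dkk3, Apc, Gsk3a and Fzd3 lie highest, at means of 22.8 to 96.0, and the lowest group mean is that of Fzd5 in ventral libraries.

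Genes with more than 1 CPM in at least 2 libraries were tested, which left 45 of the 62. The other 17 were the ligands Wnt1, Wnt3a, Wnt5b, Wnt6, Wnt8a, Wnt8b, Wnt10a, Wnt10b, Wnt11 and Wnt16, the receptor Fzd10, Rspo4, and the inhibitors Dkk1, Dkk2, Dkk4, Sfrp2 and Sfrp5. Wnt10b had no count in any dorsal library, and Wnt6 and Dkk4 had none in any ventral library, which allows a level of up to 0.146 to 0.269 CPM per library. The highest single value among the 17 was 1.58 CPM, for Sfrp2 in ventral replicate 2.

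Enrichment was called where the adjusted p was below 0.05 (edgeR quasi-likelihood test, Benjamini-Hochberg over all 16806 tested genes) and the mean CPM plus 1 differed between the groups by more than 0.58 on the log2 scale, in either direction. Dorsal-enriched calls numbered 9 of the 45 tested members, or 20.0%, against 15.7% of all tested genes and 11.4% of tested protein-coding genes. These were Wnt9b, Fzd4, Fzd5, Fzd7, Lrp6, Lgr4, Lgr6, Rspo1 and Sfrp1. Ventral-enriched calls numbered 4 of 45, or 8.89%, against 9.85% of all and 10.3% of protein-coding genes, and were Wnt7a, Rspo2, Axin1 and Ctnnb1. Leaving out 1 library at a time left 4 to 8 dorsal-enriched members (4 without dorsal replicate 4, and 5 without ventral replicate 2, 4 or 5) and 2 to 5 ventral-enriched ones (2 without dorsal replicate 4 or 5). In all, 15 of 45 had an adjusted p below 0.05, against 33.6% of all and 31.5% of protein-coding tested genes. The median log2 fold change, dorsal minus ventral, was 0.11 over the 45 members and -0.0044 over all tested genes.

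By role, the calls are read against the 15.7% of all tested genes that were dorsal-enriched and the 9.85% that were ventral-enriched. All members are protein-coding, and among tested protein-coding genes these shares were 11.4% and 10.3%. Of the genes at the cell surface and their R-spondin ligands, 7 of 17 tested were dorsal-enriched (3 of 9 Frizzled receptors, 1 of 2 Lrp co-receptors and 3 of 6 R-spondin or Lgr genes) and 1 of 17 was ventral-enriched. This pooling of roles was not planned beforehand. Of its 7 dorsal calls, only those of Fzd5 and Lgr4 were kept under all 22 other settings and left-out libraries. Of the 10 cytoplasmic components, none was dorsal-enriched by edgeR or by DESeq2 (1 at an unadjusted p below 0.05) and 2 were ventral-enriched. Among secreted inhibitors 1 of 5 tested was dorsal-enriched, and among tested ligands 1 of 9 was called in each direction. None of the 4 TCF/LEF factors was called by edgeR or by DESeq2, and 1 had an unadjusted p below 0.05. With so few genes, 1 of 5, 1 of 9 and 2 of 10 are near those shares, and the difference between roles was not tested.

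**Figure D2:**
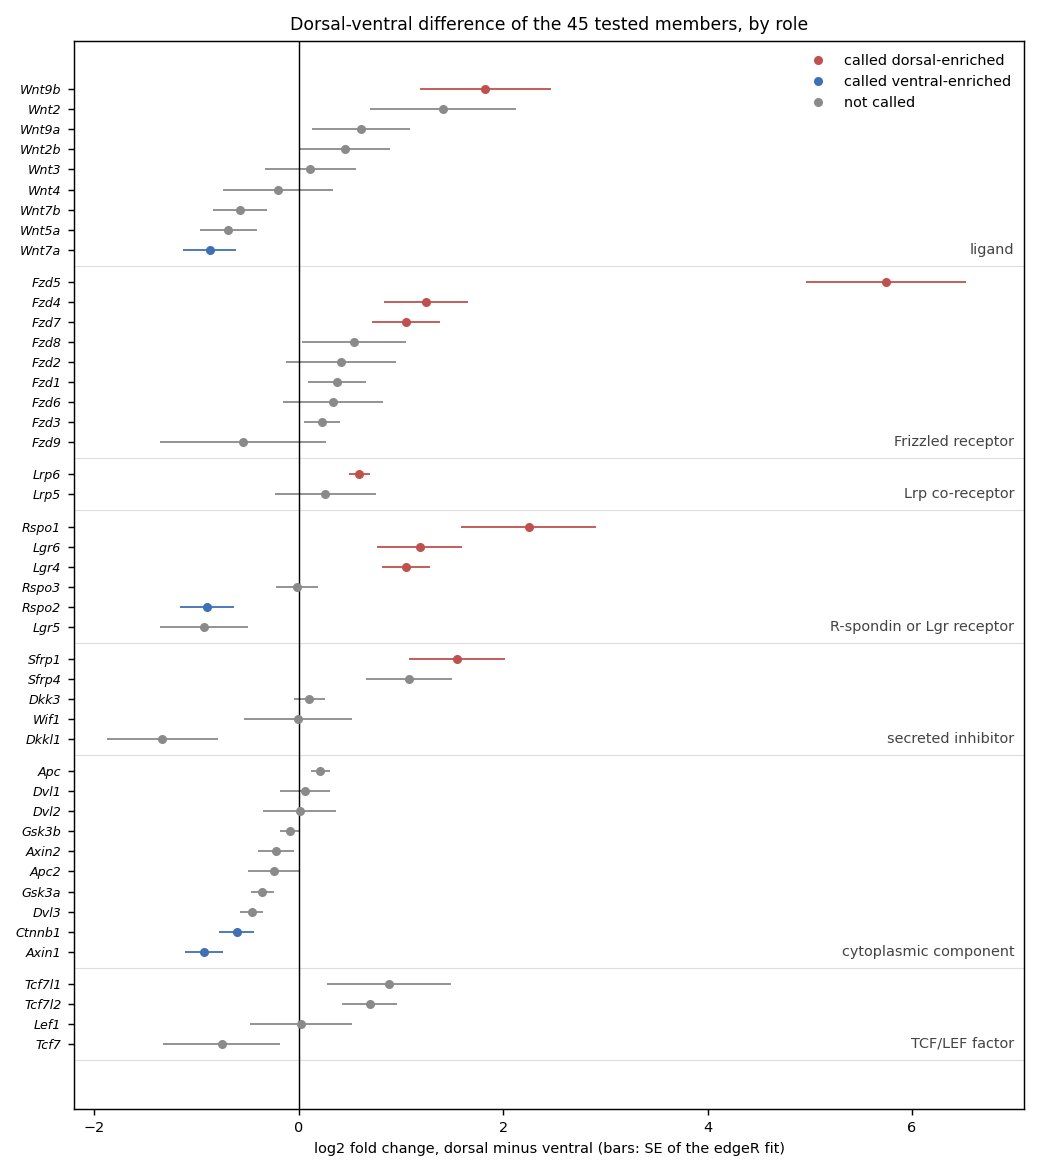
Log2 fold change, dorsal minus ventral, of the 45 tested genes of the set (points) with the SE of the edgeR fit (bars), ordered within each role; red points were called dorsal-enriched, blue points ventral-enriched, and gray points were not called. Of the 9 Frizzled receptors 8 lie above 0, and 7 of the 10 cytoplasmic components lie below 0.

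Levels per library are given in the order of replicates 1 to 5. Among the ligands, Wnt7a (chr6:91363981-91411363, GRCm38), a ligand that also acts at synapses, reached 2.73, 4.94, 5.25, 4.86 and 3.69 CPM in dorsal libraries and 9.38, 7.39, 4.73, 9.17 and 8.64 CPM in ventral ones. Ventral replicate 3 lay within the dorsal range and the other 4 ventral libraries above it. The log2 fold change was -0.87 ± 0.26 (SE, adjusted p = 0.0196, edgeR). The call was lost without dorsal replicate 5 or ventral replicate 4 or 5 (adjusted p 0.051 to 0.0557), and a correction for GC content and length left a log2 fold change of -0.66 (adjusted p = 0.0415) and a log2 ratio of mean CPM plus 1 of -0.56, under the threshold of 0.58 that applies to this ratio.

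Wnt9b (chr11:103727364-103749821), a canonical ligand best known from kidney development, was the dorsal-enriched ligand. Its levels were 8.37, 1.36, 0.750, 4.38 and 2.91 CPM in dorsal libraries and 1.22, 0, 0.675, 1.08 and 1.23 CPM in ventral ones. Dorsal replicate 1 stood highest, and dorsal replicate 3 lay within the ventral range. The log2 fold change of 1.83 ± 0.64 (adjusted p = 0.0381, edgeR) kept its call only without dorsal replicate 2 or 3. Leaving out any of the other 8 libraries gave adjusted p-values of 0.0528 to 0.0926, and the dispersions of edgeR 3 gave 0.0628.

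Wnt5a, mainly a ligand of beta-catenin-independent signaling, was the ligand with the highest level per kilobase. It measured 44.5, 32.0, 12.4, 29.4 and 26.4 CPM in dorsal libraries and 73.2, 37.8, 32.5, 44.9 and 38.6 CPM in ventral ones. The ranges overlapped, with the lowest value in dorsal replicate 3 and the highest in ventral replicate 1. Its log2 fold change of -0.69 ± 0.28 did not pass the test (adjusted p = 0.0682, edgeR), although it did without dorsal replicate 1 (adjusted p = 0.0292) or ventral replicate 3 (adjusted p = 0.0494). The ligands Wnt2, Wnt2b, Wnt3, Wnt4, Wnt7b and Wnt9a were tested and not called.

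Frizzled proteins are the receptors that bind Wnt. By length-scaled level the family was mostly Fzd3, a receptor with a main role in axon guidance, which made up 81.5 ± 1.41% (SD, n = 5) of the summed CPM per kilobase of the 10 receptors in dorsal and 85.4 ± 3.01% in ventral libraries. Fzd3 averaged 315 ± 29.6 CPM in dorsal libraries and 269 ± 91.4 CPM in ventral ones, a log2 fold change of 0.23 ± 0.18 that did not pass the test (adjusted p = 0.342, edgeR). Fzd1, next in level per kilobase, averaged 8.02 ± 2.73 and 6.41 ± 2.04 CPM (log2 fold change 0.37 ± 0.28, adjusted p = 0.324, edgeR). The 3 called receptors thus belonged to the low-level remainder of the family.

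Fzd5 (chr1:64730558-64737751), a receptor of canonical Wnt signals, showed the largest log2 fold change among the 45 tested members. In dorsal libraries it measured 5.55, 1.56, 5.25, 3.66 and 3.85 CPM, and in ventral libraries 0, 0.0880, 0, 0.0633 and 0.142 CPM. Every dorsal library lay above every ventral one, and the ventral levels rested on 5 read pairs in all, against 270 in the dorsal libraries. The pooled ratio of dorsal to ventral levels was 60.3, with an exact 95% interval of 25.5 to 187 that covers counting error only. The fitted log2 fold change was 5.74 ± 0.78 (adjusted p = 0.000246, edgeR), a size that depends on the prior count because the ventral levels are at or under the floor of 3 counts. Non-overlap with higher dorsal libraries occurred for 3 of 45 members (Fzd5, Lrp6 and Lgr4), against 9.81% of all and 8.5% of protein-coding tested genes. On the opposite strand, Gm38058 overlaps 17.8% of the exonic length of Fzd5, and reads of the 2 genes cannot be told apart without strand. Gm38058 itself measured 0.325 to 2.52 CPM in dorsal libraries and 0.189 to 0.792 CPM in ventral ones.

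Fzd4 (chr7:89404355-89413134), the receptor of the blood vessel signal Norrin and of several Wnts, measured 9.03, 6.82, 1.64, 5.41 and 4.24 CPM in dorsal libraries and 2.94, 0.880, 2.11, 2.28 and 2.41 CPM in ventral ones. Only dorsal replicate 3 lay within the ventral range. The log2 fold change was 1.24 ± 0.41 (adjusted p = 0.0324, edgeR) and lost its call without dorsal replicate 1, 2 or 4 or ventral replicate 2, 4 or 5 (adjusted p 0.0553 to 0.0664). None of the 9 tested endothelial and mural markers was called by edgeR or by DESeq2 (1 had an unadjusted p below 0.05). By edgeR, 25.5% of all tested genes were called in either direction. The summed level of these markers was 104 to 174 CPM in dorsal libraries and 111 to 158 CPM in ventral ones.

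Fzd7 (chr1:59482424-59486955), a receptor of canonical signals in many stem cells, measured 1.98, 3.12, 3.82, 3.90 and 2.83 CPM in dorsal libraries and 1.61, 2.02, 0.929, 1.46 and 1.65 CPM in ventral ones. Dorsal replicate 1 lay just under the highest ventral library, and the other 4 lay above it. This gave a log2 fold change of 1.05 ± 0.33 (adjusted p = 0.0259, edgeR), and the call was lost without dorsal replicate 3 or 4 or ventral replicate 4 or 5 (adjusted p 0.0521 to 0.076), without the expression filter (0.0634) and with the dispersions of edgeR 3 (0.0567). Fzd2, Fzd6, Fzd8 and Fzd9 were tested and not called.

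The promoters of the 3 called receptors are shown because TCF/LEF factors are the nuclear end of the pathway that these receptors open. Each line gives the 250 bases before the RefSeq start site on the strand of the gene (GRCm38.p6), and capitals mark a TCF/LEF core motif. The windows are chr7:89404116-89404365 (plus strand) for Fzd4, chr1:64737751-64738000 (minus strand) for Fzd5 and chr1:59481897-59482146 (plus strand) for Fzd7.
Fzd4: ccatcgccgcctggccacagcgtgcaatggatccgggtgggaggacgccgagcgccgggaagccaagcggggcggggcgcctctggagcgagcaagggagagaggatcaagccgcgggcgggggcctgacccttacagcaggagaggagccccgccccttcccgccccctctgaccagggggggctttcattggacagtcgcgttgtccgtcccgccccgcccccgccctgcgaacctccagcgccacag
Fzd5: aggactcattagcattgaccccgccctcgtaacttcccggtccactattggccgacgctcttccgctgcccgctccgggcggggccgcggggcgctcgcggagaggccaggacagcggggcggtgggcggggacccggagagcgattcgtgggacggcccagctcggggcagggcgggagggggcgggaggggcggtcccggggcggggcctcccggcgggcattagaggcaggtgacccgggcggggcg
Fzd7: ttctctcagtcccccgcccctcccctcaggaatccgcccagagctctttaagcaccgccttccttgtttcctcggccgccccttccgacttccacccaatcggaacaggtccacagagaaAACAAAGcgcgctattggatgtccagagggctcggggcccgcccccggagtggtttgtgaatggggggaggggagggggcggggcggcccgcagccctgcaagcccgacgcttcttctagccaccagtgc

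The motif searched was CTTTG followed by 2 bases that are each A or T, on either strand. It stood once in the Fzd7 window, read on the other strand as AACAAAG, with its leftmost base 130 bases before the start site, and no match was found in the windows of Fzd4 and Fzd5. Of the 43 members with a listed window, 4 held the motif (Wnt11, Fzd7, Dkk1 and Gsk3a), or 9.3%, against 14.9% of 27025 mouse promoters. Among tested genes it stood in 2 of 29 windows of members, or 6.9%, against 10.1% of all. Among the 9 called members with a window, Fzd7 alone held it. A match describes the letters and not a bound site.

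Lrp5 and Lrp6 are the co-receptors that recruit Axin when Wnt binds. Lrp6 (chr6:134446476-134566965) measured 90.9, 93.3, 81.4, 84.4 and 81.2 CPM in dorsal libraries and 59.9, 51.4, 60.1, 56.9 and 57.3 CPM in ventral ones, so that the groups did not overlap and the spread within each was small. Its log2 fold change was 0.59 ± 0.10 (adjusted p = 0.000948, edgeR). Its log2 ratio of mean CPM plus 1 was 0.586, just above the fold threshold. It therefore lost the call, but not the adjusted p (0.00123 to 0.00186), without dorsal replicate 1 or 2 or ventral replicate 2, and the same happened with a GC and length correction. Lrp5 was near 1 CPM, at 0.997 ± 0.558 in dorsal and 0.823 ± 0.374 CPM in ventral ones (log2 fold change 0.26 ± 0.50, adjusted p = 0.714, edgeR).

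The R-spondins and their receptors split by direction. Lgr4 (chr2:109917647-110014257), the R-spondin receptor with the highest level of the 3, measured 32.0, 28.6, 28.9, 29.8 and 28.4 CPM in dorsal libraries and 18.3, 22.9, 5.99, 13.9 and 10.6 CPM in ventral ones. All dorsal libraries lay within a narrow band above every ventral library, while the ventral ones were scattered. On the log2 scale the fold change was 1.05 ± 0.24 (adjusted p = 0.00460, edgeR), and the call was kept under all 22 other settings and left-out libraries.

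Lgr6 (chr1:134983301-135105276) measured 2.26, 0.910, 3.07, 3.18 and 3.14 CPM in dorsal libraries and 1.61, 0.880, 1.27, 1.01 and 0.755 CPM in ventral ones. Dorsal replicate 2 alone lay within the ventral range. Its log2 fold change of 1.18 ± 0.42 (adjusted p = 0.0403, edgeR) kept the call only without dorsal replicate 1 or 2 or ventral replicate 1. Without any other library the adjusted p was 0.0526 to 0.113, without the expression filter 0.0636 and with the dispersions of edgeR 3 0.0721. Lgr5, the stem cell marker of the family, added after its values were seen, was not called, with a log2 fold change of -0.93 ± 0.43 (adjusted p = 0.106, edgeR) that passed only without ventral replicate 3 (0.0412). Its share of the Lgr family's summed CPM per kilobase was 1.47 to 2.35% in dorsal and 4.57 to 8.96% in ventral libraries, without overlap. This share also moves with Lgr4, itself dorsal-enriched, which made up 89.8 to 95.1% of the sum in dorsal and 80.8 to 90.4% in ventral libraries. In ventral replicate 3 Lgr5 measured 0.591 CPM, under the lowest dorsal level of 0.818 CPM, so the share does not show a higher ventral level of Lgr5.

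Rspo1 (chr4:124986430-125009099) had the most uneven dorsal levels of the called genes. It measured 13.5, 3.70, 52.7, 68.0 and 10.3 CPM in dorsal libraries and 2.77, 7.04, 4.39, 5.69 and 11.3 CPM in ventral ones. Dorsal replicates 3 and 4 stood far above the other 8 libraries, dorsal replicates 2 and 5 lay within the ventral range, and the mean of 29.6 ± 28.8 CPM therefore rests on 2 pools. The fitted difference was a log2 fold change of 2.25 ± 0.66 (adjusted p = 0.0185, edgeR), and 1.67 (adjusted p = 0.0684) without dorsal replicate 4.

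Rspo2 (chr15:43020794-43170826) went the other way, at 4.89, 8.19, 9.81, 6.01 and 7.78 CPM in dorsal libraries and 19.6, 10.9, 16.6, 13.3 and 8.92 CPM in ventral ones. Only ventral replicate 5 lay within the dorsal range. This gave a log2 fold change of -0.89 ± 0.26 (adjusted p = 0.0193, edgeR), and the call was lost without dorsal replicate 4 (0.057) or ventral replicate 1 (0.0507). Rspo3 averaged 19.5 ± 4.06 CPM in dorsal libraries and 19.1 ± 5.28 CPM in ventral ones, a log2 fold change of -0.015 ± 0.21 (adjusted p = 0.965, edgeR) whose sign turned under 8 of 12 other settings.

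The make-up of the R-spondin family therefore varied between pools as well as between groups. Of the summed CPM per kilobase of the 4 R-spondins, Rspo1 made up 19.7 to 81.5% in dorsal and 9.96 to 43.1% in ventral libraries. Rspo2 made up 2.73 to 16.5% in dorsal and 12.9 to 31.2% in ventral libraries. Both ranges overlapped.

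**Figure D3:**
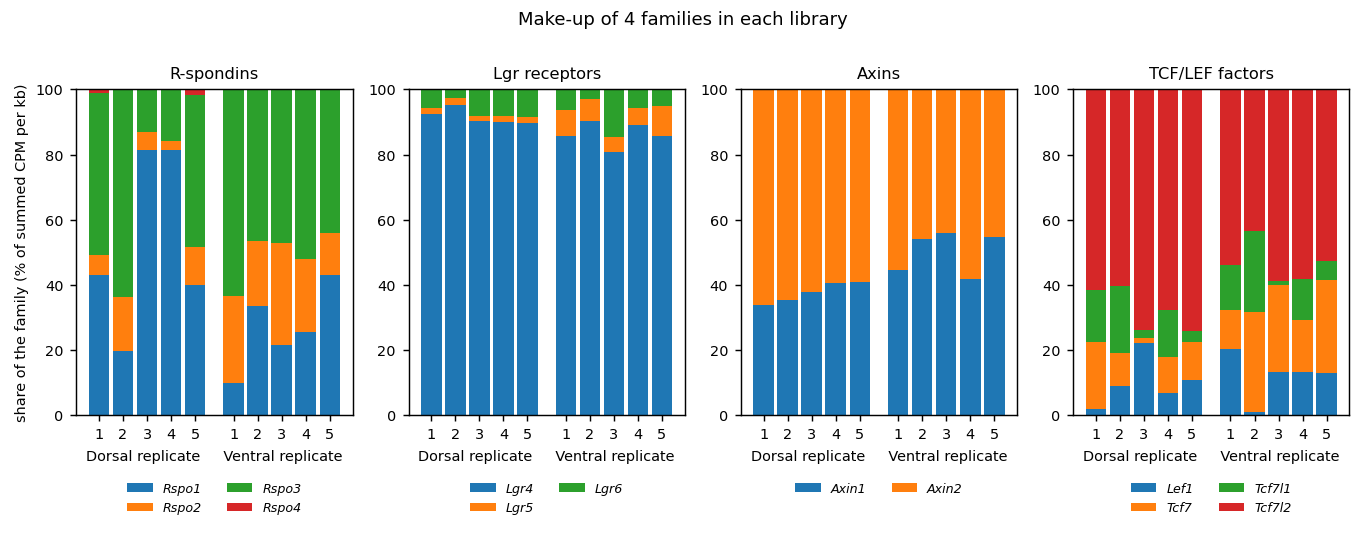
Share of each gene in the summed CPM per kilobase of its family (percent) for R-spondins, Lgr receptors, Axins and TCF/LEF factors, with 1 stacked bar per library. Rspo1 fills over 81% of the R-spondin bar in dorsal replicates 3 and 4, and the shares of Lgr5, Axin1 and Tcf7l2 do not overlap between the dorsal and the ventral libraries.

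Of the secreted inhibitors, Sfrp1 (chr8:23411502-23449632), which binds Wnts outside the cell, was called dorsal-enriched. It measured 7.15, 5.33, 1.29, 4.2 and 2.04 CPM in dorsal libraries and 1.33, 1.32, 0.591, 1.64 and 1.51 CPM in ventral ones. Dorsal replicate 3 lay within the ventral range and the other 4 dorsal libraries above it. Its log2 fold change was 1.55 ± 0.47 (adjusted p = 0.0213, edgeR), and the call was kept under all 22 other settings and left-out libraries.

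Sfrp1 and Fzd4 had the same order of dorsal libraries, highest in replicate 1, then 2, 4, 5 and 3. Of the 6 choroid plexus and ependyma markers, looked at after these values were seen, Clic6, Kl and Folr1 had that order too and the other 3 did not. Clic6, a chloride channel protein, measured 40.2, 35.7, 10.4, 28.9 and 23.0 CPM in the dorsal libraries, and Kl, the co-receptor Klotho, 67.4, 60.0, 17.7, 41.0 and 31.7 CPM. Ttr, the transthyretin gene, was highest in dorsal replicate 2, at 514, 893, 97.5, 471 and 299 CPM. The ciliary genes Foxj1 and Ccdc153 had other orders, with the lowest dorsal value of Foxj1 in replicate 1 (1.03 CPM) and that of Ccdc153 in replicate 2 (1.43 CPM). In ventral libraries Clic6 measured 6.16 to 14.8 CPM and Kl 15.7 to 29.0 CPM. The part of such cells in the levels of Sfrp1 and Fzd4 was not tested.

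Dkk3, a Dickkopf relative that does not act on Lrp co-receptors as Dkk1 does, was the inhibitor with the highest level, at 153 ± 7.20 CPM in dorsal libraries and 141 ± 34.4 CPM in ventral ones (log2 fold change 0.10 ± 0.15, adjusted p = 0.629, edgeR). Wif1, the inhibitor next in level per kilobase, measured 3.67, 6.63, 0.545, 2.76 and 1.18 CPM in dorsal libraries and 2.72, 2.11, 6.50, 2.66 and 1.94 CPM in ventral ones. The dorsal range of Wif1 contained the ventral one, and the log2 fold change was -0.0052 ± 0.53 (adjusted p = 0.996, edgeR). Dkkl1 and Sfrp4 were tested and not called.

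Inside the cell 2 of the 10 cytoplasmic components were called, both ventral-enriched, or 20% against 9.85% of all tested genes. With so few genes, 2 of 10 is near that share. Axin1 (chr17:26138688-26195811), the scaffold of the beta-catenin destruction complex, measured 5.55, 9.81, 7.57, 8.29 and 8.96 CPM in dorsal libraries and 14.5, 17.2, 15.6, 13.3 and 17.1 CPM in ventral ones. Every ventral library lay above every dorsal one. On the log2 scale the fold change was -0.93 ± 0.19 (adjusted p = 0.00250, edgeR), and the call was kept under all 22 other settings and left-out libraries. Groups that did not overlap with ventral libraries higher were found for 3 of 45 members (Axin1, Dvl3 and Gsk3a), against 8.36% of all and 9.58% of protein-coding tested genes.

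Axin2, a second scaffold that is itself induced by Wnt signaling in many tissues and was added after its values were seen, was not called. It measured 15.7, 25.8, 17.9, 17.5 and 18.7 CPM in dorsal libraries and 26.0, 20.9, 17.7, 26.4 and 20.5 CPM in ventral ones, which overlapped (log2 fold change -0.22 ± 0.18, adjusted p = 0.343, edgeR). Of the summed CPM per kilobase of the Axin pair, Axin1 made up 33.7 to 40.8% in dorsal and 42.0 to 55.9% in ventral libraries.

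Ctnnb1 (chr9:120929216-120960507), which encodes beta-catenin, measured 54.9, 91.3, 57.3, 51.4 and 57.8 CPM in dorsal libraries and 78.2, 86.3, 123, 93.8 and 97.7 CPM in ventral ones. Dorsal replicate 2 lay within the ventral range and far from the other 4 dorsal libraries, which were all under the lowest ventral one. The fitted difference was a log2 fold change of -0.61 ± 0.17 (adjusted p = 0.0143, edgeR), close to the fold threshold. The adjusted p stayed below 0.05 but the fold did not pass without dorsal replicate 1, 3, 4 or 5 or ventral replicate 3 (-0.51 to -0.57), with upper-quartile factors (-0.57) and with a GC and length correction (-0.51). Exons of other genes, mainly of Ulk4 on the opposite strand, cover 15.1% of the exonic length of Ctnnb1, and Ulk4 measured at most 3.34 CPM in any library.

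For 2 further cytoplasmic genes the adjusted p passed and the fold did not. Dvl3, which relays the signal from Frizzled, measured 59.6, 51.7, 73.5, 68.0 and 59.2 CPM in dorsal libraries and 88.3, 80.8, 83.5, 87.1 and 89.1 CPM in ventral ones (log2 fold change -0.46 ± 0.11, adjusted p = 0.00795, edgeR). Gsk3a, a kinase of the destruction complex, measured 50.5, 62.5, 64.3, 56.6 and 58.9 CPM in dorsal libraries and 69.6, 79.0, 64.6, 78.3 and 83.5 CPM in ventral ones (log2 fold change -0.36 ± 0.11, adjusted p = 0.0283, edgeR). In both, the lowest ventral library lay above the highest dorsal one, for Gsk3a by a narrow margin. With a GC and length correction these log2 fold changes shrank to -0.17 (adjusted p = 0.239) and -0.082 (adjusted p = 0.571). The adjusted p of Gsk3a also rose above 0.05 without dorsal replicate 4 (0.0733) or 5 (0.0699) or ventral replicate 4 (0.072) or 5 (0.0801), and 28.3% of its exonic length is shared with 9130221H12Rik on the opposite strand, which measured at most 1.13 CPM.

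Gsk3b, the most abundant kinase of the pair, averaged 916 ± 114 CPM in dorsal libraries and 972 ± 64.0 CPM in ventral ones (log2 fold change -0.086 ± 0.094, adjusted p = 0.509, edgeR). Apc, the tumor suppressor that holds the complex together, averaged 477 ± 32.2 and 412 ± 47.0 CPM (log2 fold change 0.21 ± 0.097, adjusted p = 0.103, edgeR). Apc2, Dvl1 and Dvl2 were tested and not called.

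**Figure D4:**
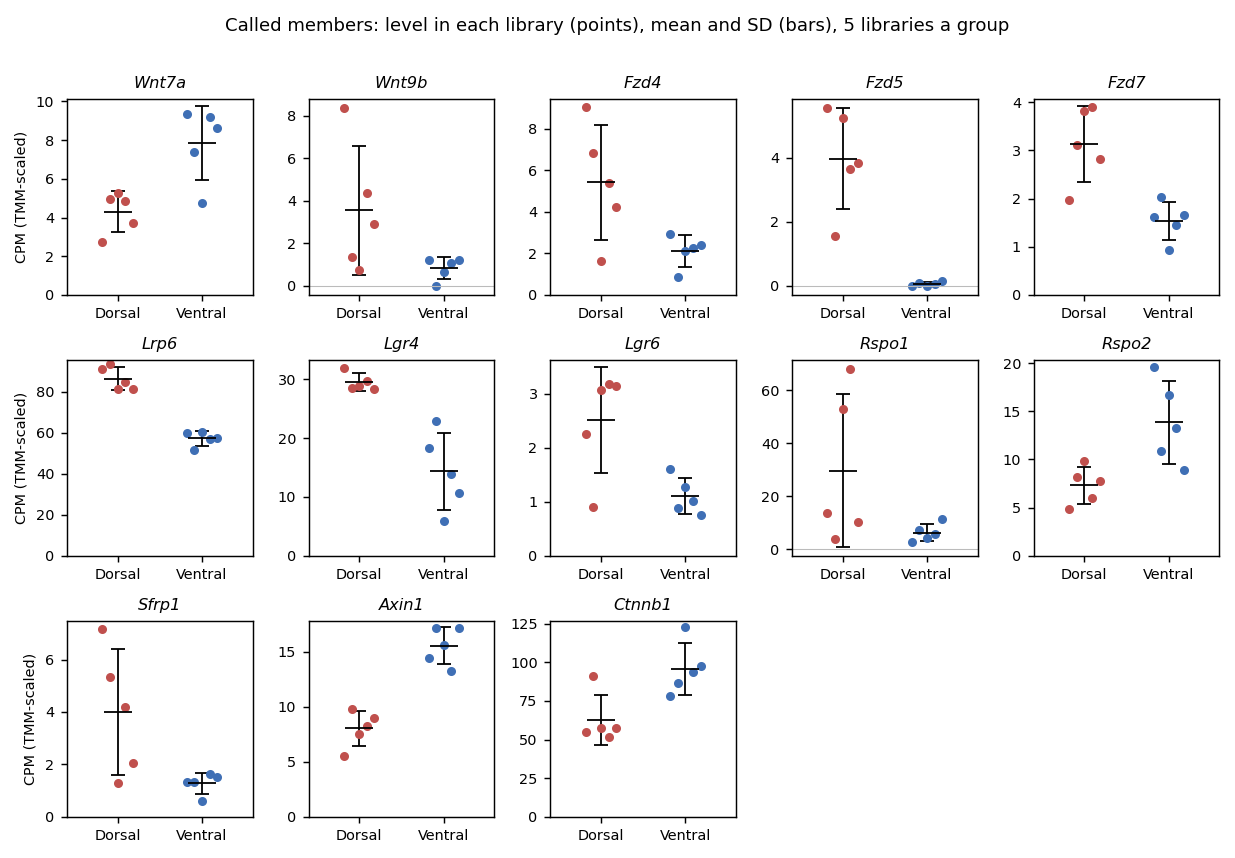
Level in CPM of the 13 called genes of the set in each dorsal (red) and ventral (blue) library, with 1 point per library, replicates 1 to 5 from left to right, and the mean and SD over 5 libraries in black. Fzd5, Lrp6, Lgr4 and Axin1 show no overlap between the groups, and the mean of Rspo1 rests on dorsal replicates 3 and 4.

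Tcf7l2 (chr19:55741820-55933654), the DNA-binding partner of beta-catenin with the highest level of the 4 TCF/LEF factors, did not pass the test. It measured 11.3, 17.7, 13.1, 14.7 and 15.1 CPM in dorsal libraries and 5.83, 4.14, 14.9, 8.48 and 11.3 CPM in ventral ones. Ventral replicate 3 lay within the dorsal range, ventral replicate 5 just under its lowest value, and the other 3 ventral libraries below it. The mean was 14.4 ± 2.40 CPM in dorsal libraries and 8.93 ± 4.32 CPM in ventral ones, and the log2 fold change was 0.70 ± 0.27 with an adjusted p of 0.0595 (edgeR). The call depended on single libraries, since the adjusted p was 0.0191 without ventral replicate 3 and 0.0497 without dorsal replicate 1, and it rose to at most 0.134 without another library. It was 0.0488 with upper-quartile factors and 0.0480 with a GC and length correction.

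Tcf7l2 is also abundant in thalamus, which lies beside the dorsal hippocampus and was removed at dissection. Of 12 thalamus markers, Gbx2 and Shox2 were near 0 (at most 0.0650 and 0.0786 CPM in any library). Of the 10 tested, 3 (30%) were called dorsal-enriched and 2 (20%) ventral-enriched, against 15.7% and 9.85% of all tested genes. Their log2 fold changes ran from -1.39 to 3.16, with 6 above 0 and 4 below. The summed level of the 12 was 335 to 639 CPM in dorsal libraries and 278 to 367 CPM in ventral ones. The dorsal-enriched markers were Prkcd, at 191 CPM in dorsal libraries and 38.8 CPM in ventral ones, Plekhg1 (52.9 and 20.0 CPM) and Zic4 (25.3 and 3.34 CPM). Prkcd and Plekhg1 are also among the genes whose atlas hybridization signal the study judged by eye to be stronger in the dorsal hilus. The source of their RNA in these libraries was not tested. Oligodendrocytes in early differentiation express Tcf7l2 as well, and the 7 markers of precursors and newly formed oligodendrocytes summed to 38.5 to 66.7 CPM in dorsal libraries and 26.0 to 54.3 CPM in ventral ones. The part of thalamic cells or of such oligodendrocytes in the level of Tcf7l2 was not tested.

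The other 3 factors were near the detection filter. Tcf7l1, often a repressor of target genes, measured 1.32, 2.66, 0.204, 1.38 and 0.314 CPM in dorsal libraries and 0.666, 1.06, 0.169, 0.822 and 0.567 CPM in ventral ones (log2 fold change 0.88 ± 0.61, adjusted p = 0.27, edgeR). Tcf7, known from T cells, measured 1.13, 0.910, 0.0682, 0.721 and 0.707 CPM in dorsal libraries and 0.388, 0.880, 2.03, 0.696 and 1.84 CPM in ventral ones (log2 fold change -0.76 ± 0.57, adjusted p = 0.318, edgeR). Lef1, a factor required for formation of the dentate gyrus, measured 0.376, 2.60, 3.95, 1.5 and 2.20 CPM in dorsal libraries and 2.22, 0.0880, 3.38, 1.96 and 2.79 CPM in ventral ones (log2 fold change 0.019 ± 0.50, adjusted p = 0.983, edgeR). For each of these genes the groups overlapped widely, and the SE of 0.50 to 0.61 limits what such low counts can show.

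Within the family, Tcf7l2 made up 60.5 to 74.1% of the summed CPM per kilobase in dorsal libraries and 43.4 to 58.7% in ventral libraries. A narrow gap separated these ranges, from 58.7% in ventral replicate 3 to 60.5% in dorsal replicate 2, although those of the Tcf7l2 level itself overlapped. The rest of the sum came from Lef1, Tcf7 and Tcf7l1, at counts down to 1 (Tcf7 in dorsal replicate 3, Lef1 in ventral replicate 2). Tcf7 made up 11.0 ± 6.82% in dorsal and 22.8 ± 8.34% in ventral libraries.

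**Figure D5:**
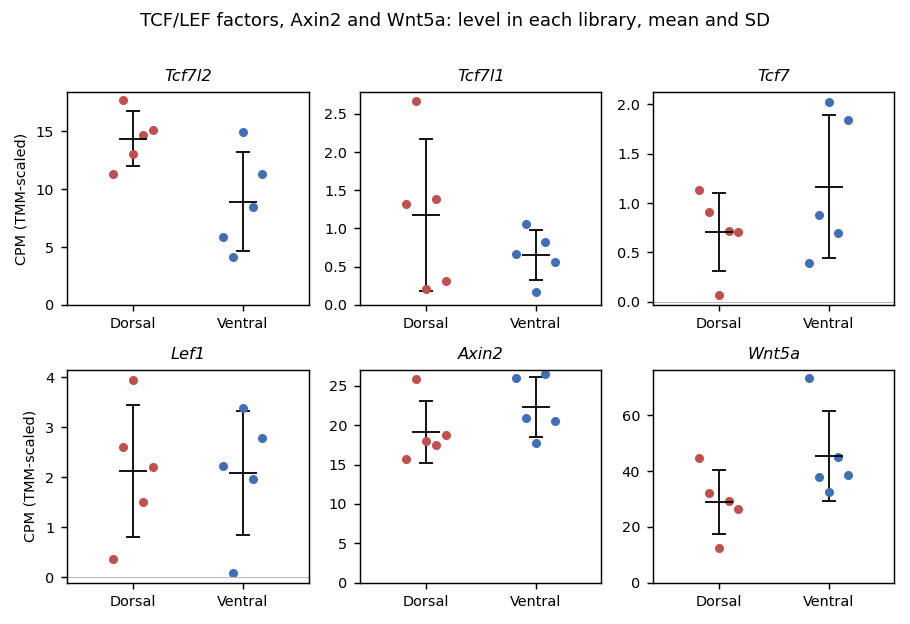
Level in CPM of the 4 TCF/LEF factors, of Axin2 and of Wnt5a in each dorsal (red) and ventral (blue) library, with 1 point per library, replicates 1 to 5 from left to right, and the mean and SD over 5 libraries in black. Ventral replicate 3, at 14.9 CPM, is the ventral library of Tcf7l2 within the dorsal range, and none of the 6 genes was called.

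Other genes of the pathway were taken from a list of 81 genes for secretion, other receptors, planar polarity, complex regulators, nuclear partners and usual targets. Of 73 tested, 7 (9.59%) were dorsal-enriched and 1 (1.37%) was ventral-enriched. The shares given above were 15.7% and 9.85% of all and 11.4% and 10.3% of protein-coding tested genes. The median log2 fold change of the 73 was 0.17. The count of called genes in either direction, 8 of 73 against 25.5% of all and 21.7% of protein-coding tested genes, rose to 15 with a GC and length correction. The number of calls over all tested genes also moved with the settings.

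Dorsal-enriched planar polarity genes were 3 of 11, or 27.3%, against 15.7% of all and 11.4% of protein-coding tested genes. Prickle2 averaged 758 ± 75.2 CPM in dorsal libraries and 422 ± 46.3 CPM in ventral ones (log2 fold change 0.85 ± 0.10, adjusted p = 8.49e-05, edgeR), with no overlap between the groups. Ankrd6, known as Diversin, averaged 43.5 ± 8.14 and 27.6 ± 3.91 CPM (0.64 ± 0.16, adjusted p = 0.00920), and the cadherin Celsr3 14.7 ± 4.44 and 9.32 ± 1.73 CPM (0.69 ± 0.23, adjusted p = 0.0331).

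Of the other receptor genes 2 of 10 tested, or 20.0%, were dorsal-enriched, against the same 15.7% and 11.4%. The co-receptor Ptk7 averaged 1.64 ± 0.927 CPM in dorsal libraries and 0.188 ± 0.108 CPM in ventral ones (log2 fold change 3.0 ± 0.56, adjusted p = 0.000692, edgeR), the latter near the floor of 3 counts, and Reck, a partner of Wnt7a signaling in brain vessels, 6.54 ± 2.08 and 3.20 ± 1.53 CPM (1.0 ± 0.35, adjusted p = 0.0404). Of 22 tested kinases, ligases and scaffolds around beta-catenin, 1 was dorsal-enriched and 1 ventral-enriched (4.55% each), under the 15.7% and 9.85% of all tested genes. Nkd1 averaged 8.17 ± 3.35 CPM in dorsal libraries and 3.19 ± 1.57 CPM in ventral ones (1.27 ± 0.37, adjusted p = 0.0174, edgeR), and Cxxc4, known as Idax, 123 ± 10.8 and 219 ± 35.8 CPM (-0.83 ± 0.12, adjusted p = 0.000321). Their relatives Nkd2 (-0.74, adjusted p = 0.104, edgeR) and Cxxc5 (-0.50, adjusted p = 0.0202, edgeR) were lower in dorsal libraries and not called. Of 7 tested usual targets 1, or 14.3%, was dorsal-enriched, near the 15.7% of all tested genes. This was Tnfrsf19, known as Troy, at 19.3 ± 5.41 and 9.72 ± 3.35 CPM (0.95 ± 0.25, adjusted p = 0.0115, edgeR). None of the 14 tested nuclear partners, 5 other antagonists and 4 secretion genes was called by edgeR or by DESeq2. Of these 23 genes, 7 had an unadjusted p below 0.05, and 3 of the nuclear partners an adjusted one.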

How the data were processed

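Counts of read pairs per Ensembl gene were deposited as 1 file per library, which the authors made from 50 bp paired reads of amplified TRAP RNA with STAR 2.5.2b on GRCm38 and HTSeq 0.7.2, as the submitters' processing notes and the study's methods state. The annotation release and the strand setting of the counting are not given in the sources used here, and the library kit does not mark strand. Analysis used edgeR 4.0.16 (R 4.3.3) on genes that exceeded 1 CPM in 2 or more libraries, with TMM scaling, the quasi-likelihood test with group alone, and Benjamini-Hochberg adjustment over 16806 genes. Rows of HTSeq that name no gene were left out. Calls needed an adjusted p below 0.05 and a difference in log2(mean CPM + 1) of more than 0.58. The SE was taken from the F statistic as the size of the log2 fold change over its root, and errors after CPM means are SD over 5 libraries. GENCODE (GRCm38) matched 54809 of 54838 gene identifiers. Promoter windows were read from RefSeq. The fits were tested on simulated data.

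Members and lists were chosen with earlier results of these data known. Named with values were all called members, those with an adjusted p below 0.05 alone, the TCF/LEF factors, the 2 members per role with the highest CPM per kilobase and the called genes of the wider list; Lgr5 and Axin2 were added after their values were seen. Alternatives were DESeq2 1.42.0 and its size factors, upper-quartile factors, no or a stricter filter, the likelihood-ratio test, the fitted fold change, the replicate block, a GC and length correction (mgcv 1.9.3), protein-coding genes alone, edgeR 3 dispersions (added after seeing the data) and each library left out. Dorsal and ventral pools came from the same 25 mice. The labels number the replicates 1 to 5 in both groups without saying that equal numbers share mice. Same-numbered libraries deviated together only weakly, which does not settle whether they share mice, and the block was an alternative. Replicates are pools, and the p-values measure the spread between them.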

Additional observations from a re-analysis of the deposited data

Results flagged for a closer look

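In 90 groups of 5 libraries (45 genes, dorsal and ventral), 5 had a library far from the other 4, a gap of more than 0.71 of the group's range. Chance marks about 1 in 20 such groups. Ctnnb1 stood at 91.3 CPM in dorsal replicate 2, with the other dorsal libraries at 51.4 to 57.8 CPM. Wif1 stood at 6.50 CPM in ventral replicate 3, with the others at 1.94 to 2.72 CPM. Rspo3 stood at 28.1 CPM in ventral replicate 1, with the others at 15.2 to 18.5 CPM. Fzd8 stood at 3.51 CPM in dorsal replicate 2, with the others at 0.659 to 1.43 CPM. Wnt3 was low in ventral replicate 2, at 0.352 CPM, with the others at 1.52 to 1.86 CPM.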

How the results depend on the processing

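Of the 13 calls, those of Fzd5, Lgr4, Sfrp1 and Axin1 were kept under all 12 other settings and all 10 left-out libraries. Over the 12 other settings, 6 to 11 members were dorsal-enriched (6 with edgeR 3 dispersions, 11 with upper-quartile factors) and 2 to 6 ventral-enriched (2 with the GC and length correction, 6 without the expression filter). Without 1 library at a time these counts were 4 to 8 and 2 to 5. Calls over all tested genes, 2636 dorsal-enriched and 1655 ventral-enriched in the main fit, moved as well. They were 1686 to 3158 and 1238 to 1838 over the 12 other settings, and 2105 to 2670 and 1216 to 1815 without 1 library. The called genes of the wider list numbered 15 with the GC and length correction, 14 with that correction and the block, and 6 to 11 without 1 library. Tcf7l2 became called with upper-quartile factors (0.74) and the GC and length correction (0.75), and ranged from 0.56 to 0.89 without 1 library. With the replicate number as a block, 8 members were dorsal-enriched, 5 ventral-enriched and 8 genes of the wider list called, and Tcf7l2 stood at 0.70 (adjusted p = 0.0801). Under the block Fzd7 lost its call (1.01, adjusted p = 0.053) and Wnt5a gained one (-0.67, adjusted p = 0.013). Correlations of same-numbered libraries were -0.0317 to 0.0695, and 2 of 5 dorsal libraries correlated best with their own number. Such weak correlations over all genes cannot show whether equal numbers share mice. Signs turned for log2 fold changes near 0: Rspo3 (0.013 with DESeq2 size factors, 0.025 upper quartile, 0.0078 stricter filter, 0.05 DESeq2, 0.021 likelihood ratio and edgeR 3, 0.035 block, 0.012 protein-coding genes), Wif1 (0.022, 0.034 and 0.017 under the opening 3 of these, 0.0089 GC and length, 0.028 protein-coding genes), Lef1 (-0.0084 block) and Fzd3 (-0.058 GC and length, -0.03 with the block). Without 1 library Rspo3 ranged from -0.10 to 0.17, Wif1 from -0.60 to 0.34, Lef1 from -0.31 to 0.23, Lrp5 from -0.023 to 0.48 and Dkk3 from -0.025 to 0.19. Omitting the expression filter shifted the median of all genes by 0.11. Members under 3 counts in most libraries are limited by depth. The causes were not tested.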
